A study of Mus musculus with 40 samples.

Results

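The Ly6 genes described here are Ly6a, Ly6c1, Ly6c2, Ly6d and Ly6e, 5 of the 49585 gene rows in the count table. They are listed symbols on chromosome 15, matched to rows by Ensembl identifier and not by any measured value. The list was chosen with earlier results of these data known. They encode small surface proteins that share a disulphide-rich Ly6/uPAR domain and are held in the cell membrane by a glycosylphosphatidylinositol (GPI) lipid anchor. Blood cell immunologists use several of them as sorting antigens: Ly6a is Sca-1, a marker of stem and early progenitor cells, and Ly6d marks lymphoid progenitors that lean towards the B cell fate. Ly-6C, encoded by Ly6c1 and Ly6c2, is found on monocytes, plasmacytoid dendritic cells and some T cells, and Ly6e is expressed broadly and responds to interferon.

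RNA came from bone marrow of the femurs and tibiae of 10 mice of the strain C57BL6/129Ola, aged 46 to 51 days. The 5 control mice had the genotype Mbd3 Flox/Flox and the 5 Mbd3del mice the genotype Mbd3 Del/Del; Mbd3 is a subunit of the chromatin complex NuRD. The labels do not name the recombinase that made the deletion or the cells in which it acted. Each mouse gave 4 sorted pools. Haematopoietic stem cells (HSCs) were gated on CD45, CD150 and EPCR without CD48, a gate in which Sca-1 was not used. The other 3 pools were gated as Sca-1-positive, c-Kit-positive and high in Flt3, and differed in the interleukin 7 receptor and Ly6D. LMPPs, the lymphoid-primed multipotent progenitors, were negative for the receptor. ALPs, or all-lymphoid progenitors, were positive for it and negative for the Ly6D protein, and BLPs, the B cell-biased lymphoid progenitors, carried both. The proteins of 2 of the 5 genes were therefore part of the sort, and the ALP to BLP difference in Ly6d checks the gate and is not a finding.

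The 40 libraries (8 groups of 5) held 2974305 to 9082610 gene counts each, and 3 counts in a library correspond to 0.330 to 1.01 CPM, the unit in which each library's gene counts are scaled to the same total. The targeted gene followed the labels: Mbd3 ranged from 8.18 to 165 CPM over the control libraries and from 0 to 3.24 CPM over the Mbd3del libraries. The surface gates were visible in the RNA. Slamf1 (CD150) averaged 131 CPM in control HSCs and 0.0320 CPM in control LMPPs, and Il7r averaged 3.10 CPM in control LMPPs against 594 in control ALPs. The sex read from X- and Y-linked transcripts went against the label in 2 of 10 mice, control mouse10372 and mouse10381. The mouse is the replicate throughout, and every library is a pool of cells, so fewer expressing cells and less RNA per expressing cell cannot be told apart.

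The coding sequences of Ly6c1 and Ly6c2 are shown because their likeness limits how far their counts can be separated. Both genes lie on the minus strand, and the start of each spliced coding sequence is given here from the GRCm38 reference (GENCODE M21), with the bases that differ between the genes in capitals. The Ly6c1 stretch (bases 1 to 240 of 396) begins within chr15:75045558-75048511 and that of Ly6c2 within chr15:75108699-75111667.
Ly6c1: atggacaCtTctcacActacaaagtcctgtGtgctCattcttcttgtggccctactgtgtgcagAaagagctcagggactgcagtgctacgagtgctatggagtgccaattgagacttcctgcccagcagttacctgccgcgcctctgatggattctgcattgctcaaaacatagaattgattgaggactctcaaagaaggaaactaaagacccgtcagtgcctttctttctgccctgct
Ly6c2: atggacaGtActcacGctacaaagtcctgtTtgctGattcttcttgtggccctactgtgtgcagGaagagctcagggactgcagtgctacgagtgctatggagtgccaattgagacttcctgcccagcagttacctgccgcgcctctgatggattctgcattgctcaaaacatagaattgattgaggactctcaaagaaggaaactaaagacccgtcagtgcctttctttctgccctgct
Only 9 of the 396 coding bases differ (97.7% identity), 6 of them in the stretch shown, and one run of 188 bases is identical. Counted from the first base of the start codon, with the Ly6c1 base first, the differences are C8G, T10A, A16G, G31T, C36G, A65G, G254A, T327C and G376A. Ly6a is next in likeness, with 82.0% identity to Ly6c1 and 81.7% to Ly6c2, and the pairs that include Ly6d or Ly6e share 50.0% to 53.8%. Of all windows of 50 bases in the spliced transcript, 36.7% in Ly6c1, 33.0% in Ly6c2 and 8.05% in Ly6a also occur in another annotated transcript, against 0 in Ly6d and Ly6e. For windows of 100 bases the shares are 15.3%, 15.8% and 0. Read length and the handling of reads with several matches were not given in the sources used here. A low count of Ly6c1 or Ly6c2 may therefore include lost or swapped reads, and the counts of both are also given as a sum.

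The 250 bases before each Ly6c start are shown for contrast, because the genes are less alike there than in the coding part. They come from RefSeq (GRCm38.p6, minus strand), which had a promoter entry for 2 of the 5 genes, with differing or unaligned bases in capitals. The windows are chr15:75048838-75049087 for Ly6c1 and chr15:75111972-75112221 for Ly6c2.
Ly6c1: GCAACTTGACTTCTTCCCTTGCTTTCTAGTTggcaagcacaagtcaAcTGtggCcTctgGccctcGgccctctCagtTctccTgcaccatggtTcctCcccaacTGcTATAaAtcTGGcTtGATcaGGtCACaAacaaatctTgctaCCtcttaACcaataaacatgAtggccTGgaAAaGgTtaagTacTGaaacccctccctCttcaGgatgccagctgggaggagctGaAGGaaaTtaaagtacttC
Ly6c2: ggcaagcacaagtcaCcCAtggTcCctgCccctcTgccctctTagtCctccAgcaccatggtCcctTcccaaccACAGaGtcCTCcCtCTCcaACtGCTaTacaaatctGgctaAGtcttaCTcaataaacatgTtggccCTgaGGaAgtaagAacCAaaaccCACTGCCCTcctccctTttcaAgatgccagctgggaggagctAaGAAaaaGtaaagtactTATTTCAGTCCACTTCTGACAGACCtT
They align with 57.7% identity (164 of 284 columns). The 284 columns include those in which a base of one window faces a gap, whereas the coding alignment of the 2 genes had no gap. The percentage is therefore lower than the identity over paired bases alone. The E box letters CANNTG, read on both strands, occur 3 times in the Ly6c1 window and 2 times in the Ly6c2 window, and 66.2% of the 32851 promoter windows in the table hold them. TATAAA occurs once in the Ly6c1 window and in 12.4% of all windows. Neither window holds TTCNNNGAA, which occurs in 7.02% of all windows.

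The 5 genes lie within 350 kb on chromosome 15, and they held nearly all counts of that stretch. From the lower end of Ly6d (chr15:74762056-74763620, minus strand) through Ly6e (chr15:74955051-74959905, plus strand), Ly6a (chr15:74994877-74998031, minus), Ly6c1 (chr15:75044018-75048830, minus) and Ly6c2 (chr15:75108158-75111970, minus), the table lists 22 genes. The 5 genes took 99.8% of the counts of these 22, and 4 of the other 17 had no count in any library. No annotated gene overlaps any of the 5. Among the neighbours the highest group mean was 19.7 CPM, for Ly6k in Mbd3del BLPs. Ly6i, which lies between Ly6e and Ly6a, did not exceed a group mean of 1.93 CPM.

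**Figure D1:**
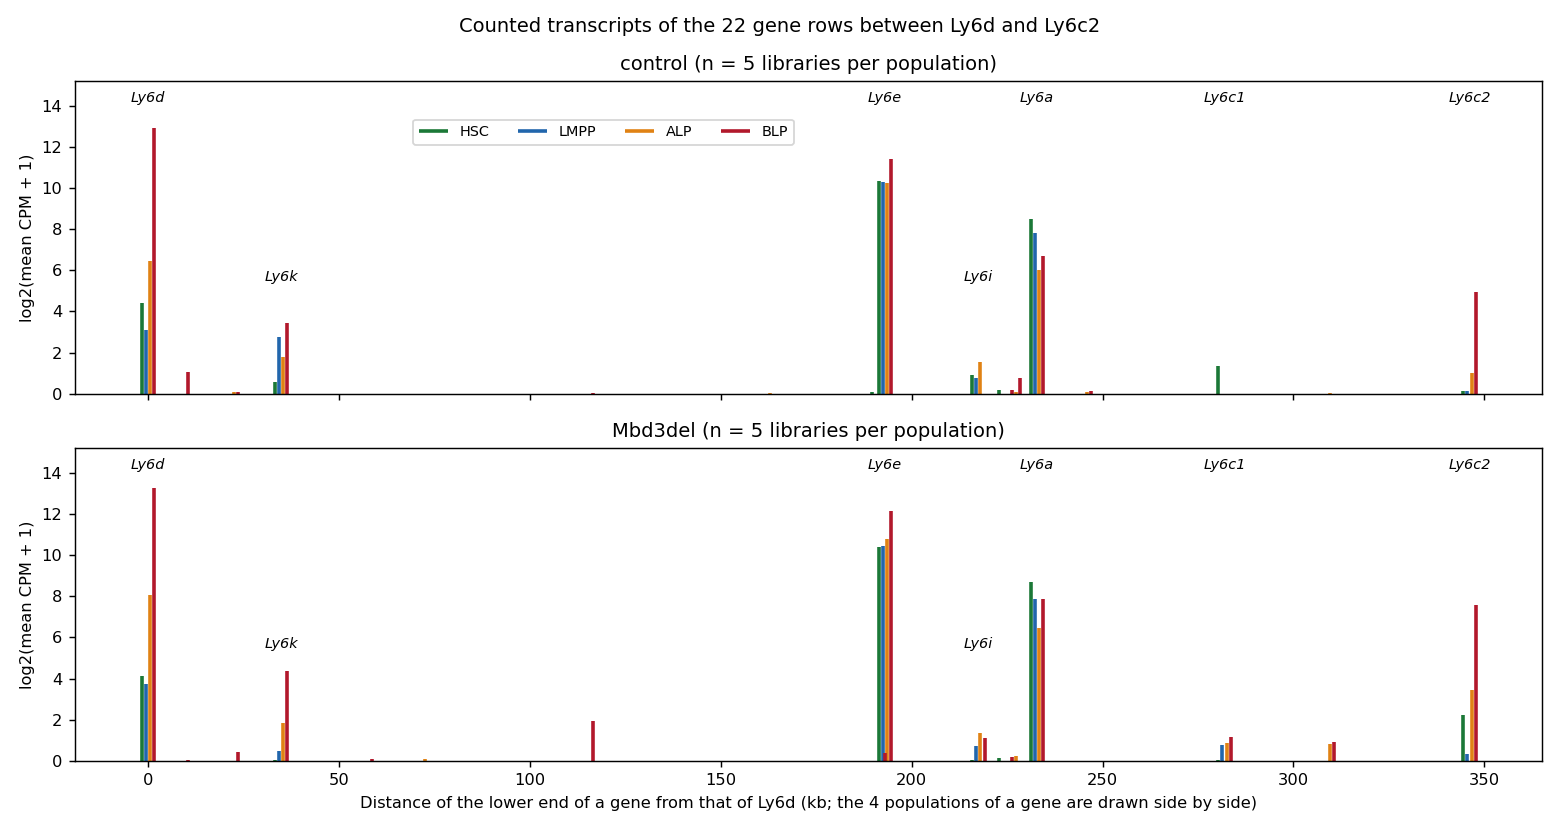
Mean expression, log2(mean CPM + 1), of the 22 genes between Ly6d and Ly6c2, drawn at the distance of each gene's lower end from that of Ly6d in kb; each line is the mean of 5 libraries of 1 population, control above and Mbd3del below. Tall lines stand at Ly6d, Ly6e and Ly6a and at Ly6c2 in BLPs (29.4 CPM in control, 193 in Mbd3del); in ALPs the Ly6c2 line is short in control (0.981 CPM) and higher in Mbd3del (9.78), and the Mbd3del HSC line (3.71) comes from 1 library. Ly6k has the highest mean of the neighbours.

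In control mice each gene had its own profile from HSC to BLP. Levels of different genes were compared per kilobase of the longest coding transcript. Control HSCs had mean levels of 572 ± 86.2 CPM per kb for Ly6e, 382 ± 69.2 for Ly6a and 27.1 ± 16.5 for Ly6d (SD, n = 5 each). Ly6c1 (1.86 ± 2.81) and Ly6c2 (0.133 ± 0.212) were near the detection floor there. In control BLPs the order was Ly6d at 10464 ± 3853 CPM per kb, Ly6e at 1188 ± 186, Ly6a at 107 ± 56.3 and Ly6c2 at 35.8 ± 16.3, with no Ly6c1 count. By mean level the leading gene of the family was thus Ly6e in HSCs and Ly6d in BLPs. The lead of Ly6e in HSCs depends on the length used. Per kilobase of all exons, Ly6e and Ly6a lay closer in control HSCs, at 345 and 302 CPM per kb.

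**Figure D2:**
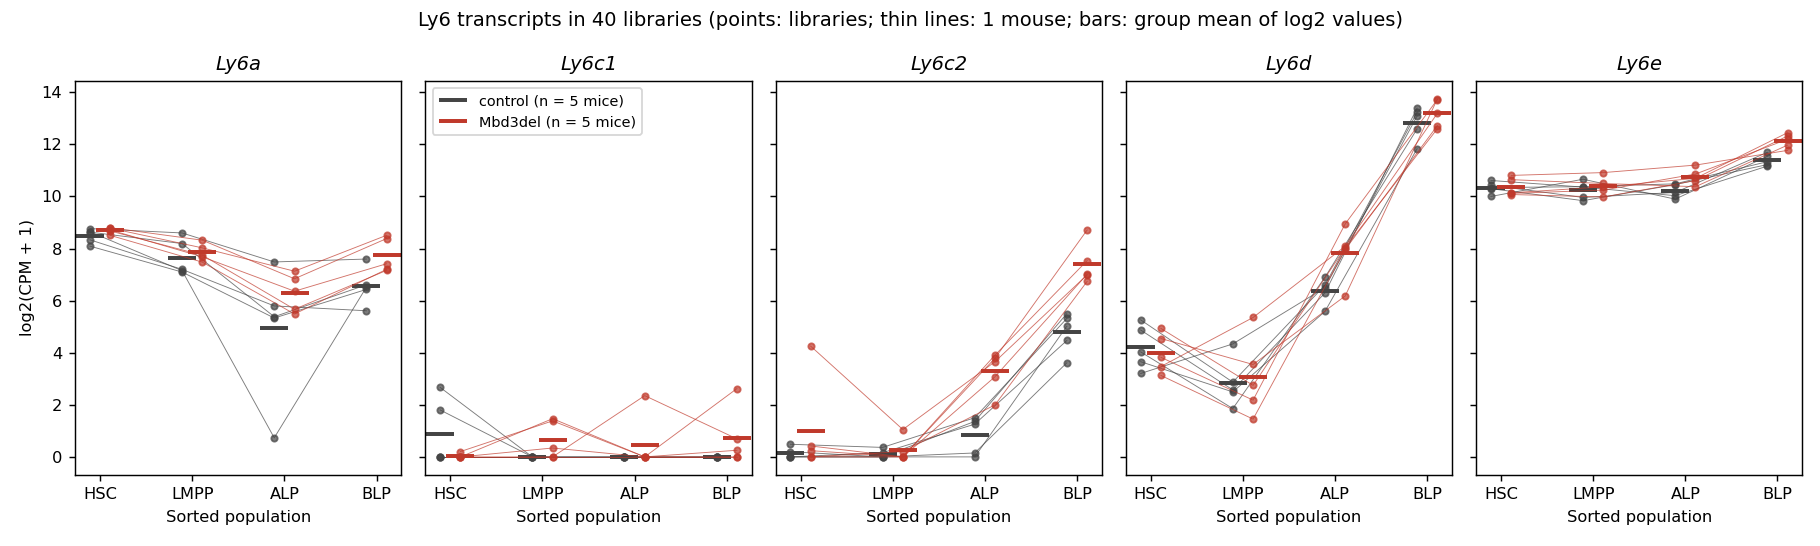
Level of each Ly6 gene, log2(CPM + 1), in each of the 40 libraries by population; points are libraries, thin lines join the 4 libraries of a mouse, and bars are means of the log2 values (control dark, Mbd3del red, n = 5 mice each). Ly6a is lowest in ALPs, Ly6c2 and Ly6d climb from LMPP to BLP, and Ly6e is level until BLP in control mice. In Mbd3del mice Ly6e averaged 1383 CPM in LMPPs and 1752 in ALPs.

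Ly6a, the Sca-1 gene, was highest in HSCs and lowest in ALPs in both genotypes, although LMPPs, ALPs and BLPs were all sorted as Sca-1-positive. Control HSC libraries had 272, 322, 395, 399 and 435 CPM, and control LMPP libraries 136, 141, 146, 291 and 387. Control ALP libraries had 0.661, 39.3, 40.7, 54.6 and 178 CPM, and control BLP libraries 47.9, 85.2, 90.5, 96.6 and 193. The value of 0.661 CPM rests on 6 counts in mouse10380 and the highest value in each of these 4 groups came from mouse10372, so the spread within groups was wide. Ly6a was lower in LMPPs than in HSCs, and lower in ALPs than in LMPPs, in 5 of 5 control and 5 of 5 Mbd3del mice.

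In Mbd3del mice Ly6a was again highest in HSCs and lowest in ALPs, while LMPPs and BLPs had nearly equal means (235 and 231 CPM). HSC libraries had 362, 407, 419, 439 and 444 CPM, LMPP libraries 177, 204, 213, 259 and 318, ALP libraries 43.8, 49.8, 81.2, 113 and 139, and BLP libraries 142, 146, 170, 333 and 363. HSCs and LMPPs did not overlap, as was the case for 5.44% of genes that were lower in Mbd3del LMPPs. ALPs and BLPs did not overlap either, as was the case for 1.6% of genes that were higher in Mbd3del BLPs. The steps were tested with edgeR's quasi-likelihood test, which fits all genes and adjusts p by Benjamini-Hochberg over all genes tested, with 0.05 as the threshold. Ly6a fell from HSC to LMPP in Mbd3del mice by 0.77 ± 0.20 (log2 fold change ± SE, adjusted p = 0.0275), the 1 family member called among a background of 6.74% of genes. In control mice the change of -0.59 was not called (adjusted p = 0.437), and 0 members were called where the background was 5.93%, with 0 members at an unadjusted p under 0.05 and 0 called by DESeq2. The difference between these 2 steps was -0.20 (edgeR adjusted p of the interaction = 0.9998), so a difference between genotypes was not shown. Leaving out any 1 of the 5 Mbd3del mice ended this call (edgeR adjusted p 0.0556 to 0.128).

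From LMPP to ALP the Ly6a log2 fold change was -2.03 ± 0.78 in control mice (edgeR adjusted p = 0.485) and -1.35 ± 0.34 in Mbd3del mice (adjusted p = 0.0573). With the mouse as a block in the model, the Mbd3del step passed the threshold (edgeR adjusted p = 0.0292). From ALP to BLP the value was 1.47 ± 0.39 in Mbd3del mice (adjusted p = 0.157), which the block also brought past the threshold (adjusted p = 0.0248). In control mice it was 0.90 ± 0.75 (adjusted p = 0.998). Two-sided exact permutation tests compared populations next to each other in level. In Mbd3del mice HSCs exceeded LMPPs (adjusted p = 0.0265), while LMPPs and BLPs were not separated (adjusted p = 1). BLPs exceeded ALPs (adjusted p = 0.0476), a step that the main edgeR fit did not call. These values are adjusted over 30 such tests (5 genes, 2 genotypes), of which 10 passed 0.05. The 30 include the Ly6d tests of BLPs against ALPs in both genotypes, whose outcome the gate set. The Ly6a value for BLPs over ALPs lies close to the threshold, and an adjustment without the gate tests was not run. The tests treated libraries as unpaired, although the same mice gave all populations of a genotype. No neighbouring pair was separated for Ly6a in control mice (adjusted p 0.170 to 0.224).

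Ly6d, the antigen that divides ALPs from BLPs, was higher in ALPs than in LMPPs, although ALPs were sorted as Ly6D-negative. ALP means were far below BLP means, at 85.5 against 7785 CPM in control mice and 269 against 9902 in Mbd3del mice. Which cells of the ALP pools held this RNA was not tested. Control LMPP libraries had 2.62, 4.63, 4.94, 6.31 and 19.2 CPM, and control ALP libraries 47.0, 77.6, 89.3, 95.4 and 118. The groups did not overlap, as was the case for 1.85% of genes that were higher in control ALPs. In Mbd3del mice LMPP libraries had 1.73, 3.53, 5.71, 10.7 and 39.9 CPM and ALP libraries 71.5, 249, 261, 271 and 493, again without overlap, as was the case for 1.9% of genes that were higher in Mbd3del ALPs. The rise from LMPP to ALP was 3.43 ± 0.55 in control mice (edgeR adjusted p = 0.00529) and 4.55 ± 0.78 in Mbd3del mice (adjusted p = 0.00576). It was the 1 member called in the control step (background 0.938%) and 1 of 2 called in the Mbd3del step (background 2.18%). Without control mouse10357 or mouse10358 the control step was not called (highest edgeR adjusted p = 0.0685).

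HSCs also held Ly6d RNA. Control HSC libraries had 8.21, 11.6, 15.4, 28.3 and 37.3 CPM, and Mbd3del HSC libraries 7.73, 10.1, 13.1, 22.3 and 29.5. Control ALPs exceeded control HSCs (exact permutation adjusted p = 0.0265), whereas HSCs and LMPPs were not separated in either genotype (adjusted p = 0.165 in control, 0.439 in Mbd3del). Ly6d was lower in LMPPs than in HSCs in 4 of 5 mice of each genotype.

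The Ly6d gate itself was plain in the RNA. Control BLP libraries had 3646, 6175, 8713, 9620 and 10772 CPM, with a mean 91.1 times that of control ALPs, and Mbd3del BLP libraries had 6211, 6737, 9351, 13494 and 13718. As a check of the sort, the step was 6.62 ± 0.39 in control mice (edgeR adjusted p = 3.66e-07, the smallest p of 10905 genes) and 5.25 ± 0.48 in Mbd3del mice (adjusted p = 7.41e-05).

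Ly6c2, one of the Ly-6C genes, was near 0 in most HSC and LMPP libraries and highest in BLPs. In control mice HSC and LMPP libraries ranged from 0 to 0.399 and from 0 to 0.287 CPM. Control ALP libraries had 0, 0.110, 1.39, 1.57 and 1.83 CPM, the first and second resting on 0 and 1 count. Control BLP libraries had 11.2, 21.2, 31.4, 38.8 and 44.3 CPM, all above every ALP library, as was the case for 0.752% of genes that were higher in control BLPs. The ALP to BLP step was called in control mice (edgeR adjusted p = 0.0318), and it was 4.32 ± 0.51 in Mbd3del mice (adjusted p = 0.000825). With the mouse as a block the control step missed the threshold (edgeR adjusted p = 0.111), as it did without control mouse10357, mouse10358, mouse10372 or mouse10381 in turn (edgeR adjusted p 0.0553 to 0.405). In Mbd3del mice the 5 LMPP libraries held 7 Ly6c2 counts in all, in 2 of them (mean 0.245 CPM), and the ALP libraries averaged 9.78 CPM. Ly6c2 passed the expression filter for this step only through the ALPs, as it did for the control ALP to BLP step only through the BLPs. The Mbd3del call from LMPP to ALP (edgeR adjusted p = 0.0458) and the control call from ALP to BLP therefore describe a gene near 0 on one side. Their fitted fold changes are not given. The LMPP to ALP call was lost with the block (edgeR adjusted p = 0.112) and when the counts of both Ly6c genes were summed. It was also lost without mouse10360, mouse10361, mouse10376 or mouse10384 in turn (highest edgeR adjusted p = 0.224). In control mice Ly6c2 did not pass the expression filter for that step and was not tested.

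Ly6c1 was almost absent. It had 130 counts over the 40 libraries, in 10 of them, and passed the expression filter in none of the 13 comparisons. All 15 control LMPP, ALP and BLP libraries were at 0, where 3 counts over a group of 5 would correspond to 0.0829 to 0.0907 CPM. Among control HSCs, mouse10372 and mouse10380 had 2.48 and 5.35 CPM (8 and 30 counts). In Mbd3del libraries the highest values were 5.15 CPM in the BLPs of mouse10360 (34 counts) and 4.10 CPM in the ALPs of mouse10384 (29 counts). Because its reads overlap those of Ly6c2, no difference between groups was read from Ly6c1 alone.

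Ly6e was the steadiest of the 5 until the BLP stage. Control HSC libraries had 1023, 1258, 1296, 1378 and 1565 CPM, LMPP libraries 914, 996, 1313, 1327 and 1618, and ALP libraries 952, 1044, 1137, 1403 and 1431. These 3 groups overlapped and were not separated (exact permutation adjusted p = 0.748 and 1 for the neighbouring pairs). Control BLP libraries, at 2295, 2390, 2580, 2976 and 3310 CPM, lay above all of them. The ALP to BLP rise was 1.26 ± 0.21 in control mice (edgeR adjusted p = 0.0149) and 1.45 ± 0.20 in Mbd3del mice (adjusted p = 0.00339). With the block the control value was 1.27 and missed the threshold (adjusted p = 0.102), and so did the value without control mouse10357, mouse10358 or mouse10381 (highest edgeR adjusted p = 0.319). The Mbd3del step missed it without mouse10360 (edgeR adjusted p = 0.0592).

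Ly6d, Ly6c2 and Ly6e therefore rose together from ALP to BLP. They made up 3 called members of the 4 tested in control mice, where 0.266% of genes were called. In Mbd3del mice they were 3 of 4, where 0.636% were called. The Ly6d call belongs to the gate in both genotypes. The control Ly6c2 call describes a gene near 0 in ALPs that passed the expression filter only through the BLPs. With the mouse as a block the control count fell to 1 and that count was also reached without control mouse10357, mouse10358 or mouse10381. A difference between genotypes was not shown in any of the 3 steps for any member tested: 0 members and 0% of genes were called by edgeR, and DESeq2 called 0 members as well. The smallest unadjusted p, and the only one under 0.05, was 0.0176, for a smaller Ly6d step from ALP to BLP in Mbd3del mice (-1.36 ± 0.54, adjusted p = 0.99997).

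The comparison of Mbd3del with control mice asks which of these levels changed with loss of Mbd3 at each stage. In HSCs and LMPPs 0 of 3 tested members were called (backgrounds 0.0176% and 0.0183%). Log2 fold changes of Mbd3del over control were 0.11, -0.37 and -0.060 for Ly6a, Ly6d and Ly6e in HSCs and -0.079, 0.62 and 0.055 in LMPPs, with unadjusted p from 0.511 to 0.826, and DESeq2 called 0 members there too. Ly6c2 was too low for the test in both populations. In 1 library it was not: the HSCs of Mbd3del mouse10365 had 18.1 CPM of Ly6c2 (118 counts), while the other 9 HSC libraries ranged from 0 to 0.399. That library also had the highest S100a8, S100a9, Ngp and Camp of the 10 HSC libraries, which are neutrophil and monocyte genes. S100a8 was at 1157 CPM against at most 130 elsewhere and S100a9 at 407 against at most 44.1. Its summed level of 14 monocyte and neutrophil markers was 2195 CPM, against 904 to 1481 in control HSCs. The markers did not all go the same way. Elane, Ctsg, Ms4a3 and Ltf were at 0 in that library, but these genes were near the floor in HSCs. Their highest value in any of the 10 HSC libraries was 1.64 CPM, for Ms4a3. Ccr2 and Ly6g, also near the floor, were highest in that library (0.153 and 0.612 CPM) and at 0 in the others. Lyz2 was at 490 CPM, below all control HSC libraries (800 to 1066). The highest Mpo, Prtn3 and Csf1r lay in other HSC libraries. The part of these markers in the Ly6c2 value was not tested.

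In ALPs the Mbd3del values of Ly6c2, Ly6d and Ly6e lay high. edgeR called 0 of 4 tested members, with 3 at an unadjusted p under 0.05, and DESeq2 called 1, Ly6d. Over all genes DESeq2 called 14 in this comparison, where edgeR called 2. Ly6c2 had 2.99, 7.45, 11.6, 12.8 and 14.01 CPM in Mbd3del ALPs, and the 5 control ALP libraries reached at most 1.83. The groups did not overlap, as was the case for 0.336% of genes that were higher in Mbd3del ALPs. The control ALPs held 37 Ly6c2 counts in all, and the gene passed the expression filter only through the Mbd3del group. The ratio of means was 9.96 and the edgeR adjusted p 0.9999.

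Ly6d averaged 269 ± 150 CPM in Mbd3del ALPs against 85.5 ± 26.1 in control ALPs (SD, n = 5 each), a ratio of 3.15. mouse10360, mouse10361, mouse10365 and mouse10384 lay above all controls, and mouse10376, at 71.5 CPM, lay among them. Its log2 fold change was 1.73 ± 0.41 (edgeR adjusted p = 0.815), where 0 members and 0.0182% of genes were called. Without Mbd3del mouse10376 it was 1.98 and passed the threshold (edgeR adjusted p = 0.0423), and with DESeq2 on all libraries the adjusted p was 0.0188. Ly6e had 1326, 1560, 1658, 1858 and 2357 CPM in Mbd3del ALPs, 4 of them above every control, with a log2 fold change of 0.59 ± 0.23 (edgeR adjusted p = 0.9999). Ly6a, at 85.5 ± 40.8 against 62.7 ± 67.6 CPM, overlapped fully (0.61 ± 0.76, adjusted p = 0.9999), and without control mouse10372 or mouse10380 its value was 1.41 or 0.29.

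In BLPs Ly6c2 was higher in Mbd3del mice, the 1 family member called. Mbd3del BLP libraries had 106, 126, 128, 185 and 418 CPM against 11.2 to 44.3 CPM in control BLPs. The ratio of means was 6.55 and the log2 fold change 2.73 ± 0.43 (edgeR adjusted p = 0.0384), where 0.0743% of genes were called. Summing both Ly6c genes gave 194 ± 132 against 29.4 ± 13.4 CPM and a log2 fold change of 2.74 (adjusted p = 0.0390). The highest library came from mouse10360, and without it the fold change was 2.25 (edgeR adjusted p = 0.0939). The call held only without mouse10357 or mouse10376 among the 10 ways of leaving out 1 mouse, with adjusted p from 0.0357 to 0.106 and fold changes from 2.25 to 2.91.

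Ly6e, Ly6a and Ly6d were not called in BLPs. Ly6e had 3488, 4013, 4697, 5122 and 5589 CPM in Mbd3del BLPs, all above the 5 controls, whose highest was 3310. Its log2 fold change was 0.79 ± 0.17 (edgeR adjusted p = 0.121). DESeq2 called it (adjusted p = 0.00182) among 158 genes in this comparison, where edgeR called 8. Ly6e also passed with edgeR's newer dispersion estimator (adjusted p = 0.0434). With Ly6c2 it was 1 of 2 members whose groups did not overlap in BLPs, as was the case for 1.51% of genes that were higher in Mbd3del. Ly6a averaged 231 ± 108 against 103 ± 53.8 CPM (SD, n = 5), with a log2 fold change of 1.17 ± 0.38 (edgeR adjusted p = 0.349), and 2 Mbd3del libraries lay above all controls. Ly6d overlapped, with a log2 fold change of 0.37 ± 0.31 (adjusted p = 0.849).

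**Figure D3:**
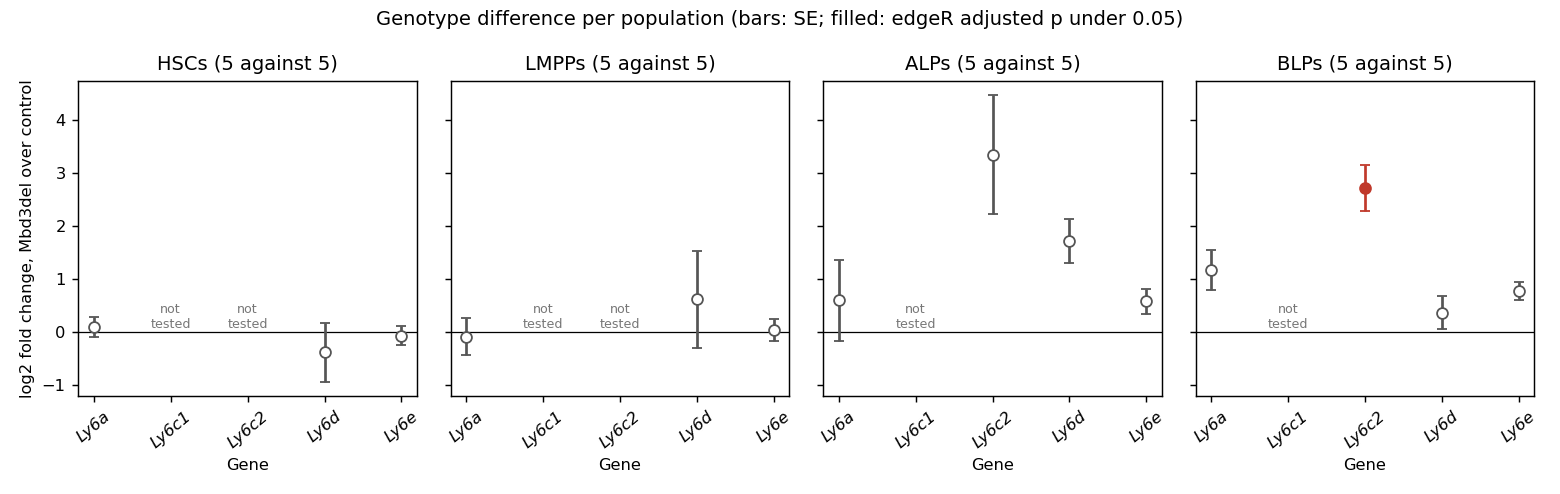
Log2 fold change of Mbd3del over control for each Ly6 gene, 1 panel per population (5 mice against 5); bars are standard errors and filled points have an edgeR adjusted p under 0.05. In HSCs and LMPPs the points lie near 0 or have wide errors; in ALPs and BLPs all 4 tested genes lie above 0 and only Ly6c2 in BLPs is filled.

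Markers of other cell types were set beside the BLP result. Plasmacytoid dendritic cells carry Ly-6C, and the 10 markers of that cell type summed to 1506 to 3596 CPM in control BLPs and 3263 to 6517 CPM in Mbd3del BLPs. The highest sum, like the highest Ly6c2, was in mouse10360. All 9 tested markers had a positive fold change and 0 were called, with a median of 0.90 on the log2 scale against -0.03 over all genes. Siglech (1.21 ± 0.35, edgeR adjusted p = 0.279), Irf8 (0.90 ± 0.20, adjusted p = 0.139) and Runx2 (1.08 ± 0.28, adjusted p = 0.216) had the smallest p, and Klk1 had no count in Mbd3del BLPs. The BLP sums of the genotypes overlapped, with control mouse10357 (3596 CPM) above the lowest Mbd3del library, that of mouse10361 (3263 CPM). In ALPs, where Ly6c2 also lay higher, the sums overlapped as well: 1693 to 2992 CPM in control and 1571 to 2363 in Mbd3del.

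The 14 monocyte and neutrophil markers summed to 197 to 421 CPM in control BLPs and 258 to 675 in Mbd3del BLPs, with 6 of 7 tested positive, 0 called and 3 at 0 in the Mbd3del group. Of the 13 B lineage markers 12 had a negative fold change in BLPs (median -0.47, 0 called), and their sums were 7052 to 8914 CPM in control and 4643 to 7522 in Mbd3del. The part of these markers in the Ly6c2 and Ly6e differences was not tested.

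Taking each mouse as 1 value, the mean over its 4 populations of log2(CPM + 1) after TMM scaling, Ly6c2 and Ly6e separated the genotypes. Mbd3del mice averaged 2.99 ± 0.65 for Ly6c2 against 1.49 ± 0.38 in control mice, and 10.89 ± 0.14 for Ly6e against 10.56 ± 0.06 (SD, n = 5 mice). Neither gene overlapped between genotypes, as was the case for 1.28% of 13800 genes that were higher in Mbd3del mice. Each had an exact permutation p = 0.00794, the smallest that 5 against 5 allows, and an adjusted p = 0.0159 over 6 tests. The sum of both Ly6c genes gave the same p with a difference of 1.42. A difference shared by all 4 populations was not shown, because the mean can be carried by some of them. The edgeR log2 fold change of Ly6e was -0.060 in HSCs and 0.055 in LMPPs, against 0.59 in ALPs and 0.79 in BLPs. Ly6c2 was near 0 in most HSC and LMPP libraries. Ly6a (difference 0.70, exact p = 0.159), Ly6d (0.43, exact p = 0.135) and Ly6c1 (0.24, exact p = 0.349) did not pass. Without control mouse10372 Ly6a differed by 1.02 (exact permutation adjusted p = 0.0476), and without Mbd3del mouse10361 Ly6d differed by 0.60 (exact permutation adjusted p = 0.0238). Without mouse10365, the one with Ly6c2 in its HSCs, the Ly6c2 difference was 1.27 and that of Ly6e 0.28, and both passed.

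**Figure D4:**
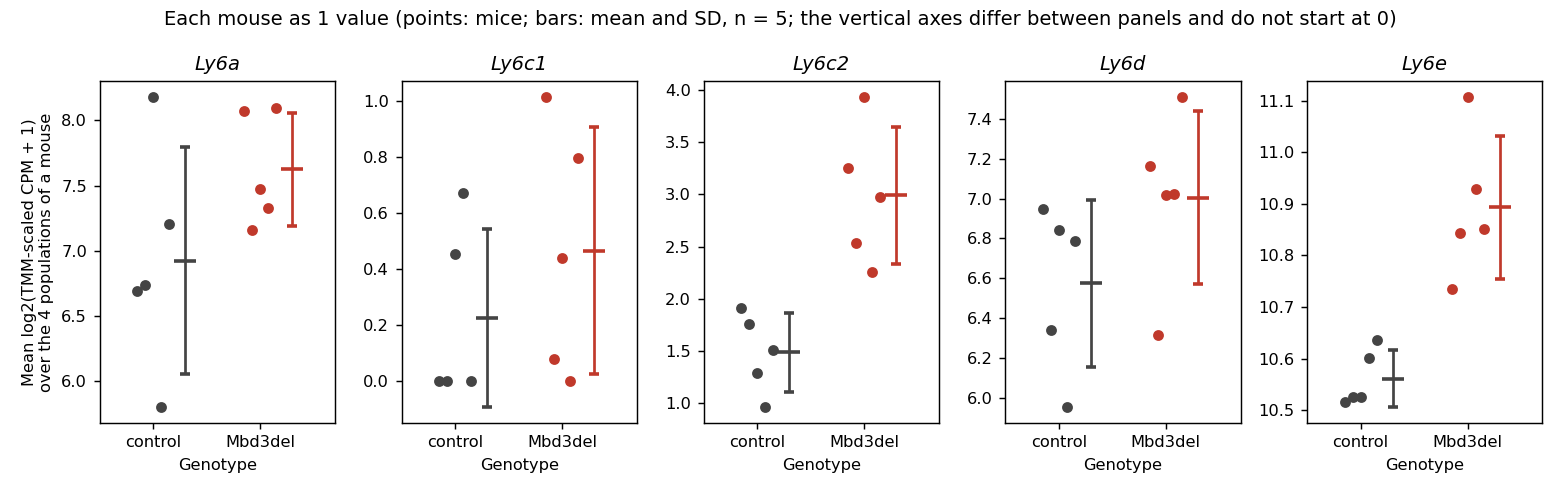
Each mouse as 1 value per gene: the mean of log2(TMM-scaled CPM + 1) over its 4 populations; points are mice and bars the mean and SD (n = 5 each), with a separate vertical axis per gene that does not start at 0. The genotypes do not overlap for Ly6c2 and Ly6e and overlap for Ly6a, Ly6c1 and Ly6d.

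Few genes related by structure were expressed highly enough to be tested. Of 34 other Ly6 and uPAR domain genes 32 were matched in the table, and 2 to 4 were high enough to be tested in each comparison of populations or genotypes. Cd59a, an inhibitor of the complement membrane attack complex, averaged 60.7 CPM in control HSCs and 17.0 in control LMPPs and fell by 1.79 ± 0.46 (edgeR adjusted p = 0.0354), the only call among them in any of the 13 comparisons. Plaur, the urokinase receptor, stayed between 4.35 and 21.1 CPM in group means. Lynx1, a modulator of nicotinic receptors, had 24.4 CPM in control BLPs and 2.15 in control ALPs (3.61 ± 1.03, adjusted p = 0.490), and Ly6k had 9.67 CPM in control and 19.7 in Mbd3del BLPs (1.08 ± 0.94, adjusted p = 0.857). Cd59b, Ly6g5b, Lypd6 and Lypd6b reached at least 1 CPM in some group and at most 7.40.

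The 29 genes that build, transfer and remodel GPI anchors, on which all 5 Ly6 proteins depend, gave 0 calls in each of the 13 comparisons. Of 25 tested in BLPs, 15 had a positive and 10 a negative genotype fold change (median 0.04). Pigg (1.96, adjusted p = 0.721) and Pigo (1.42, adjusted p = 0.817) had the largest values there.

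Most interferon-responsive genes had negative genotype fold changes, and none was called by edgeR. Of the 35 listed, 24 of 33 tested in BLPs and 29 of 33 in ALPs had a negative fold change in Mbd3del, with medians of -0.47 and -0.43 against -0.03 and -0.04 over all genes, and 0 were called in either. In HSCs 26 of 35 were negative and in LMPPs 23 of 34, also with 0 called. In BLPs Mx2 (-1.85, edgeR adjusted p = 0.399) and Zbp1 (-1.74, adjusted p = 0.813) had the largest values. From HSC to LMPP 1 was called higher and 4 lower of 33 tested in control mice (background 5.93%). In Mbd3del mice 1 was called higher and 2 lower of 34 (background 6.74%). From LMPP to ALP 14 of 34 tested were positive and 20 negative in control mice (median -0.22 against 0.02 over all genes). Ifitm3 and Rtp4 were called lower, 2 genes where the background was 0.938%. In Mbd3del mice 7 were positive and 27 negative in this step (median -0.57 against -0.01). Gbp2, Isg20, Ifitm3 and Irgm1 were called lower, 4 genes where the background was 2.18%. Ifitm3, an antiviral membrane protein called in both, fell by 1.97 ± 0.29 in control mice (edgeR adjusted p = 0.00306) and fell by 1.37 ± 0.25 in Mbd3del mice (adjusted p = 0.00836).

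Genes with the profile most like each Ly6 gene were found by Pearson correlation of log2(CPM + 1) over the 40 libraries among 9752 named genes averaging at least 5 CPM. The libraries come from 10 mice and 4 populations, so the coefficients mainly follow the differences between populations. Closest to Ly6d were Vpreb2 (0.96), Cd79a (0.94) and Ebf1 (0.93), a surrogate light chain, a part of the B cell receptor and a B lineage transcription factor. Cd79a was also closest to Ly6c2 (0.93) and Ly6e (0.87), followed by Vpreb2 and Strip2 for Ly6c2 and by Upb1 and Vpreb2 for Ly6e. Iigp1, an interferon-inducible GTPase, was closest to Ly6a (0.82), followed by Fam117b and Sgce. The Iigp1 mean in control mice went from 193 CPM in HSCs through 64.2 in LMPPs to 15.3 in ALPs and was 15.7 in BLPs. The likeness of Ly6c1 to any gene was weak (at most 0.47, Zfp820).

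Among the family members themselves, Ly6c2 and Ly6d (0.91), Ly6c2 and Ly6e (0.90) and Ly6d and Ly6e (0.84) were correlated over the 40 libraries. After each library's group mean was subtracted, the same pairs gave 0.42, 0.33 and 0.18. Ly6a had coefficients between -0.22 and 0.27 with the other 4.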

How the data were processed

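For each of 40 Smart-seq2 libraries from mouse bone marrow pools, the authors deposited raw read counts, with genes as rows of a single table. The submitters' processing notes name the aligner STAR 2.5.2b, the counter HTSeq 0.6.1p1 and the build GRCm38. Annotation release, strand setting and read length were not given in the sources used here. Smart-seq2 amplifies full-length cDNA without molecular identifiers, so counts are not independent molecules and floors (3 counts) cover counting error only. HSC pools held 150 cells and other pools 100 by the sample labels, and the reverse by the series text. Mbd3del LMPP titles say floxed where the genotype field says deleted; the genotype field was used, and Mbd3 counts were checked against it.

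Of 128910 rows, 49585 are genes. The other 79325 (repRegion) rows, 0.205% to 2.28% of a library's counts, were left out of library sizes and tests. Symbols and coordinates came from GENCODE M21 (GRCm38), which matched 49326 identifiers.

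CPM were gene counts scaled to the same total in each library. For each of 13 comparisons, only its own libraries were fitted, with edgeR 4.0.16 in R 4.3.3 (quasi-likelihood F test, robust, TMM scaling, filterByExpr with minimum count 10 and total 15), with Benjamini-Hochberg adjustment over all genes tested and a threshold of 0.05; these are the adjusted p-values of single genes unless another test is named. The procedure was tested on simulated counts. Single values were compared by two-sided exact permutation tests over 252 arrangements on log2(CPM + 1) after TMM scaling. Alternatives were RLE factors, no scaling, DESeq2 1.42.0, no filter, a filter at 50 counts, a joint fit, labelled sex as a covariate, a newer dispersion estimator, the summed Ly6c genes, a pseudocount of 0.1, the mouse as a block, and leaving out mice.

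Libraries of 1 mouse come from the same animal, so steps between populations are paired by mouse. The main fits of these steps and the exact permutation tests between populations did not use this pairing. The block on the mouse used it in the fits, and no paired permutation test was run. Deviations from group means correlated by 0.0202 to 0.100 on average within a mouse and by -0.0244 to -0.00154 between mice.

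The family members, gene lists and tests were chosen with earlier results of these data known. Beside the family, the text names the 3 genes most correlated with each member, other Ly6 and uPAR genes that were called or reached 1 CPM in a group, up to 4 genes per comparison of the GPI anchor and interferon lists by size, and markers. Lists of T cell, erythroid, and endothelial and stromal markers gave 2, 1 and 1 calls in the 13 comparisons.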

Additional observations from a re-analysis of the deposited data

Results flagged for a closer look

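Of 37 groups of 5 libraries checked for a single library far from the rest, 8 were picked out by Dixon's criterion at 95%. For normally distributed values chance alone picks out about 1 group in 20. That rate does not hold for groups near 0, where any count in a single library beside libraries at 0 is always picked out. The 8 groups can therefore not be set against it. Ly6c1 accounts for 3 of the 8, each a group near 0: 0.153 CPM in the HSCs of Mbd3del mouse10365, 4.10 CPM in the ALPs of mouse10384 and 5.15 CPM in the BLPs of mouse10360. Ly6c2 accounts for another 3: 18.1 CPM in the HSCs and 1.07 CPM in the LMPPs of Mbd3del mouse10365, and 418 CPM in the BLPs of mouse10360. For Ly6d, the LMPPs of control mouse10381 had 19.2 CPM and those of Mbd3del mouse10384 had 39.9 CPM, each above the other 4 libraries of the group.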

How the results depend on the processing

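Of 489 values of single members under another setting, 450 kept their direction and side of the threshold, 14 lost and 15 gained a call and 10 changed sign; with 1 mouse left out the numbers were 372, 27, 4 and 12 of 415. Over all genes, DESeq2 called more than edgeR in each of the 13 comparisons. Called counts of members that moved by more than 1.5 times were as follows. In Mbd3del against control ALPs, 0 became 1 (Ly6d) with DESeq2, and leaving out 1 mouse gave 0 to 1. In BLPs, 1 became 0 without scaling, when all 40 libraries were fitted jointly and without both control mouse10372 and mouse10381, 2 with DESeq2 and with the newer estimator, and 0 to 1 with 1 mouse left out. The Ly6c2 edgeR adjusted p was 0.0575 without scaling, 0.276 in the joint fit and 0.221 without both control mice. In control mice, HSC to LMPP went from 0 to 1 (Ly6a) without both mice, LMPP to ALP from 1 to 2 (Ly6a and Ly6d) in the joint fit and to 0 to 1 with 1 mouse left out, and ALP to BLP from 3 to 1 (Ly6d) with the replicate block on the mouse and without both mice, and to 1 to 3 with 1 mouse left out. In Mbd3del mice, HSC to LMPP went from 1 to 0 without a filter and to 0 whichever mouse was left out, and LMPP to ALP from 2 to 1 without a filter (Ly6a) or with the Ly6c genes summed (Ly6d) and to 1 to 2 with 1 mouse left out. Smaller gains were all in Mbd3del mice, each by Ly6a: LMPP to ALP went from 2 to 3 with DESeq2, the newer estimator and labelled sex, and ALP to BLP from 3 to 4 with DESeq2, the newer estimator and the block. Equal counts could hold other genes, as in the joint fit of HSC to LMPP in Mbd3del mice, where Ly6c2 was called and Ly6a was not. The cause was not tested. Beside the steps named with the results, the block on the mouse changed no other call.

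Differences near 0 changed sign. Ly6e in HSCs between genotypes (-0.060) was 0.0407 without scaling and -0.14 to 0.0330 with 1 mouse left out, and Ly6a in LMPPs (-0.079) was 0.0911 without scaling, 0.68 without both control mice and -0.23 to 0.33 with 1 mouse left out. With 1 mouse left out, Ly6d in LMPPs ranged from -0.58 to 1.31 and Ly6e from -0.0838 to 0.17. Ly6e from HSC to LMPP in control mice (0.00376) was -0.0154 with RLE factors, -0.0154 with DESeq2, -0.0800 without scaling, -0.000524 with the filter at 50 counts, -0.0109 with the block, -0.00873 without both mice and -0.17 to 0.10 with 1 mouse left out. Leaving out 1 mouse gave -0.20 to 0.0831 for Ly6e from LMPP to ALP in control mice and -1.68 to 0.0869 for Ly6d from HSC to LMPP in Mbd3del mice. The genotype difference of the HSC to LMPP step was 0.49 for Ly6a without both mice, and with 1 mouse left out -0.39 to 0.14 for Ly6a and -0.36 to 1.89 for Ly6d. Without scaling the median genotype log2 fold change of all genes in LMPPs was 0.12, against 0.01 with TMM, and that of the genotype difference of the LMPP to ALP step was -0.23, against -0.08 with TMM.

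Counts near the floor limit Ly6c1 everywhere and Ly6c2 in HSCs and LMPPs, and reads shared between these genes cannot be assigned from the counts. P-values measure the spread between 5 mice per genotype, and nothing here separates cell number from RNA per cell.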
